A study of Mesocricetus auratus with 7 samples.

Results

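Mov10l1 and Piwil3 are genes of the piRNA pathway, and their transcripts were examined in fully grown oocytes of the golden hamster (Mesocricetus auratus). Both were taken by name, with no threshold on their counts, and are 2 of the 22285 genes in the count table. Mov10l1 is the row ENSMAUG00000003667. Piwil3 is listed by its symbol, because its gene model was added from RefSeq to the Ensembl annotation of MesAur1.0. The RefSeq annotation of the BCM_Maur_2.0 assembly lists both genes as protein coding, each with 1 transcript model. That assembly is not the one on which reads were counted, and no coordinates are given here.

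The 7 libraries came from females of 3 genotypes. WT (n = 2) carried intact Mov10l1, HET (n = 2) carried a mutant allele beside an intact one and KO (n = 3) carried mutant alleles only. In the mutant allele, exon 20 was removed by CRISPR–Cas9. The allele descends from 1 founder female and was crossed to wild-type outbred animals for 2 generations before homozygotes were bred, so that all HET and KO animals carry the same editing event. No drug or hormone treatment was labelled, and all oocytes were collected at the germinal vesicle (GV) stage in a medium that blocks the resumption of meiosis. Each library was made from 6 to 12 pooled oocytes and carries its own animal code. The WT animals were 37 (WT 1) and 17 weeks old (WT 2), the HET animals 40 (HET 2) and 36 (HET 3), and the KO animals 45, 40 and 36 (KO 1, KO 2 and KO 3). WT 2 was thus the youngest animal, and its code also has another prefix than the other 6 codes.

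piRNAs are small RNAs of the germline that guide PIWI proteins to matching transcripts, above all to those of retrotransposons. MOV10L1 is an RNA helicase with a part in making piRNAs from the single-stranded RNAs out of which they are cut. PIWIL3 is a PIWI protein, an Argonaute relative that carries finished piRNAs. It is found in oocytes of many mammals and is missing in mice. MOV10L1 therefore acts early in the pathway and PIWIL3 at its end.

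The Cas9 target sequences are shown because they were designed to cut out the part of Mov10l1 that the mutant allele lacks. Of the 4 targets, a pair lies in intron 19 and a pair in intron 20, on either side of exon 20. They are written 5′ to 3′ as in the sample labels, with the last 3 bases in capitals.
intron 19 target 1: gggtatcacatgacttgGGG
intron 19 target 2: ggtgttgggatcatagtgGGG
intron 20 target 1: tctccactcttccatgtgGGG
intron 20 target 2: taccattacatttgtcagGGG
The last 3 bases of all 4 targets read GGG, which has the form NGG of the motif that the common Cas9 requires beside its target, but the labels do not say whether the listed sequences include that motif. As listed, the first has 20 bases and the others have 21.

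The libraries held 24242442 to 33956304 estimated counts, and 9860 to 10585 genes had at least 10 counts. The table gives a single value per gene. Reads over exon 20 are not separated from reads over the rest of Mov10l1, so that the share of a difference that lies over exon 20 was not measured here. Since oocytes were pooled, less RNA per oocyte and fewer oocytes with the RNA cannot be told apart either. A list of 38 marker genes of oocytes, follicle cells, blood and endothelium had been made. Of these, 0 could be tied to a row through the reference table used here, and the tissue was not checked by markers. The same held for 35 further genes of the piRNA pathway and its small RNA relatives, of which 34 are in the RefSeq table but 0 could be tied to a row.

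Mov10l1, the helicase gene that carries the deletion, was lowest in the KO libraries. Its level was measured in CPM, the count of the gene scaled to a fixed total of all counts in a library. It was 13.8 CPM in WT 1 and 36.2 in WT 2. It was 15.9 in HET 2 and 18.8 in HET 3. In KO it was 4.60 (KO 1), 6.40 (KO 2) and 3.26 (KO 3). No KO library reached the level of any WT or HET library, and the lowest of the latter (WT 1) was 2.15 times the highest KO library. Such a separation, with KO below all others, was found in 445 of 9501 genes with a mean of at least 1 CPM (4.68%). Of these 445, 16 had a gap at least as wide as Mov10l1, Mov10l1 itself included, and the median gap was 1.09-fold.

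WT libraries averaged 25.0 ± 15.8 CPM of Mov10l1 (SD, n = 2), HET libraries 17.3 ± 2.05 (SD, n = 2) and KO libraries 4.75 ± 1.57 (SD, n = 3). KO therefore held 19.0% of the WT mean and 27.4% of the HET mean. By genotype the order was WT, HET and KO, but WT and HET were neighbours that did not differ beyond their spread: both HET libraries lay between the WT libraries. Against WT 1 alone, the HET mean was 126% and the KO mean 34.5%. Mov10l1 reads were still counted in every KO library, with 119.5, 217.17 and 91 estimated counts. Counting error was small beside the distance of KO from the other genotypes, but the intervals of WT 1 and HET 2 overlapped. The 95% exact Poisson interval was 2.63 to 4.01 CPM in KO 3, the library with the fewest reads, and 12.3 to 15.3 CPM in WT 1. These intervals cover counting error only, because copies made in amplification were not marked by molecular identifiers.

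**Figure D1:**
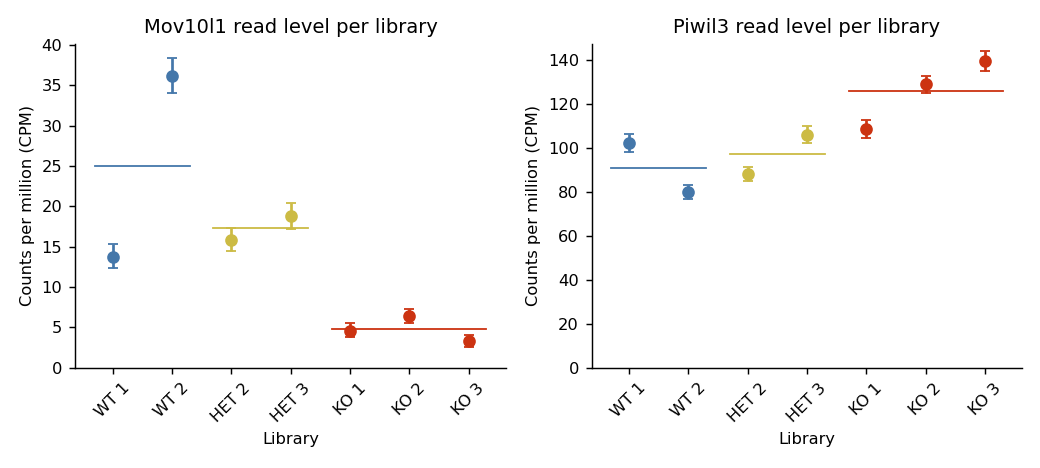
Levels of Mov10l1 (left) and Piwil3 (right) in each library, in CPM. Points are libraries, bars are 95% Poisson intervals of the count, and horizontal lines are genotype means. Mov10l1 is at 3.26 to 6.40 CPM in KO and at 13.8 to 36.2 in the other libraries, whereas Piwil3 is at 109 to 140 CPM in KO and at 80.0 to 106 in the others.

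The difference was tested with DESeq2 over all genes, with a call at an adjusted p under 0.01. Between KO and WT, 12 of 12340 genes were called lower in KO (0.0972%), and Mov10l1 was among them, with a log2 fold change of −2.29 (95% interval −3.30 to −1.29, DESeq2 adjusted p 0.00261). It had the 38th smallest p. Between KO and WT and HET together, 19 of 10317 genes were called lower (0.184%). Mov10l1 was again among them, at −2.07 (95% interval −2.91 to −1.23, DESeq2 adjusted p 0.000695), with the 18th smallest p. Between KO and HET, 5 of 14954 genes were called lower (0.0334%). Mov10l1 was not, with a log2 fold change of −1.81 whose interval of −2.82 to −0.80 lay below 0 (DESeq2 adjusted p 0.0856). The comparisons share the KO libraries and are not independent of each other.

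Between HET and WT, Mov10l1 had a log2 fold change of −0.48 and was not called (DESeq2 adjusted p 0.910), where 0.143% of genes were called lower. Without WT 2 the sign turned, to 0.32. The 95% interval, −1.58 to 0.61, spans a level of less than the WT mean by more than 1 on the log2 scale as well as a level above it. Against the number of mutant alleles (0, 1 and 2), the log2 level of Mov10l1 fell by 1.19 per allele (95% interval −1.72 to −0.66, DESeq2 adjusted p 0.00521). In that fit, 15 of 13165 genes were called lower (0.114%).

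The call of Mov10l1 depended on the test and on single libraries. By the quasi-likelihood test of edgeR it was not called against WT (adjusted p 0.465), against WT and HET together (0.409), against HET (0.915) or per allele (0.483), although its p had rank 24 of 11220 against WT. edgeR called few genes: 1 of 11220 against WT (0.00891%), 2 against HET (0.0178%), 4 against WT and HET together (0.0357%), 1 between HET and WT (0.00891%) and 0 per allele (0%). Unadjusted p under 0.05 were found for 656 genes (5.85%) against WT and for 621 (5.53%) per allele. WT 2 set much of the size: without it, the log2 fold change against WT was −1.48 (95% interval −2.74 to −0.23, DESeq2 adjusted p 0.362), and without WT 1 it was −2.80 (DESeq2 adjusted p 0.000512). Without KO 1 the change against WT was −2.28 (DESeq2 adjusted p 0.0259) and without KO 3 it was −2.08 (DESeq2 adjusted p 0.0398), both no longer called. Adding the animals' age to the fit gave −1.48 and no call (DESeq2 adjusted p 0.552). Age and the level in WT 2 cannot be told apart, as no other animal was near 17 weeks.

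The WT libraries differed by 2.61-fold in Mov10l1 (with 0.1 CPM added to both), the HET libraries by 1.18-fold and the KO libraries by up to 1.93-fold. Among 2525 genes with a mean within 2-fold of that of Mov10l1, 15.5% had a WT range at least as wide, 81.1% a HET range at least as wide and 45.2% a KO range at least as wide. For Mov10l1, DESeq2 estimated a variation between libraries of a genotype of 38.5% of the level. Its trend for genes of this abundance gave the same value to 3 significant digits. With 1 library per animal, differences between animals, oocyte pools and amplifications cannot be told apart in this variation. The library with the strongest pull on the fit of Mov10l1 was WT 2.

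Piwil3, the gene of the oocyte PIWI protein, had more reads than Mov10l1 in every library. Its level was 102 CPM in WT 1 and 80.0 in WT 2. It was 88.2 in HET 2 and 106 in HET 3. In KO it was 109 (KO 1), 129 (KO 2) and 140 (KO 3). The KO libraries were the 3 highest, but KO 1 exceeded HET 3 by 1.02-fold only, and their 95% Poisson intervals overlapped (105 to 113 and 102 to 110.0 CPM). KO libraries above all others were found in 229 of 9501 genes (2.41%), and 201 of these 229 had a gap at least as wide as Piwil3, Piwil3 included.

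The means of Piwil3 were 91.1 ± 15.7 CPM in WT (SD, n = 2), 97.1 ± 12.6 in HET (SD, n = 2) and 126 ± 15.7 in KO (SD, n = 3). KO reached 138% of the WT mean and 129% of the HET mean. The order was KO, HET and WT, and HET and WT did not differ beyond their spread, since the ranges of their libraries overlapped. Their order turned without WT 2, where the log2 difference of HET from WT was −0.084. No comparison called Piwil3. The log2 difference was 0.54 between KO and WT (95% interval 0.10 to 0.98, DESeq2 adjusted p 0.351), 0.43 against HET (−0.01 to 0.87, DESeq2 adjusted p 0.746) and, for HET relative to WT, 0.11 (−0.37 to 0.60, DESeq2 adjusted p 0.970). Against WT and HET together it was 0.48 (0.14 to 0.82, DESeq2 adjusted p 0.198), and per mutant allele it was 0.28 (0.07 to 0.49, DESeq2 adjusted p 0.292). In these fits 0.413%, 0.201%, 0.313%, 0.165% and 0.22% of the genes tested were called higher, in the order given. By edgeR the adjusted p was 0.824 against WT and 0.770 against WT and HET together.

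Piwil3 varied less than Mov10l1 between the WT libraries and between the KO libraries, but not between the HET libraries. Its WT libraries differed by 1.28-fold, its HET libraries by 1.20-fold and its KO libraries by up to 1.28-fold. Among 1608 genes with a mean within 2-fold of that of Piwil3, 41.4%, 64.6% and 55.2% had ranges at least as wide in WT, HET and KO. DESeq2 estimated a variation between libraries of a genotype of 17.0% of the level, where its trend gave 20.0%. Leaving out WT 2, the difference of Piwil3 in KO against WT was 0.34 (95% interval −0.20 to 0.89, DESeq2 adjusted p 0.804), and without WT 1 it was 0.78 (0.23 to 1.32, DESeq2 adjusted p 0.180).

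**Figure D2:**
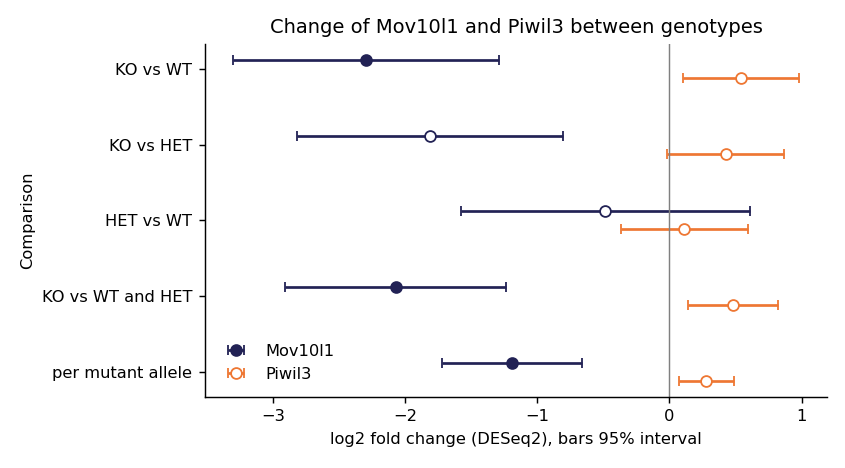
Log2 fold changes of Mov10l1 and Piwil3 from DESeq2 (horizontal axis) in 5 comparisons (vertical axis), with 95% intervals as bars. Filled points were called at an adjusted p under 0.01 and open points were not. Mov10l1 is called in KO against WT (−2.29), in KO against WT and HET together (−2.07) and per mutant allele (−1.19), and Piwil3 is called in none.

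The place of each gene among all transcripts was read from its rank by reads within a library, which does not depend on scaling between libraries. Longer transcripts give more reads at the same number of molecules, so a rank of this kind is a rank of reads and not of molecules. Piwil3 ranked 1666 in WT 1, 2043 in WT 2, 1770 in HET 2 and 1716 in HET 3. In KO it ranked 1498, 1324 and 1251. It thus stood in the top 5.61 to 9.17% of the table in the 7 libraries, or the top 10.0 to 16.8% of genes with any count. All KO ranks were nearer the top than all WT and HET ranks. By CPM, KO lay above all others in 229 of 9501 genes (2.41%), and the share by rank was not computed.

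Mov10l1 stood lower in each library. It ranked 4868 in WT 1, 3264 in WT 2, 4520 in HET 2 and 4469 in HET 3, and 6796, 6251 and 7338 in KO. In WT and HET this was the top 14.6 to 21.8% of the table, and in KO the top 28.1 to 32.9%. Among genes with at least 10 counts, it stood in the top 31.9 to 49.1% in WT and HET and in the top 59.1 to 71.3% in KO. Even in KO the gene was therefore not among the transcripts without reads.

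**Figure D3:**
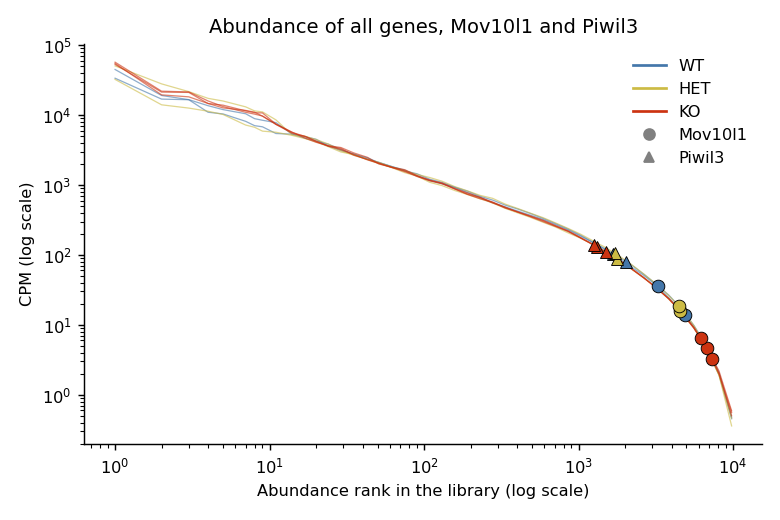
CPM (vertical axis, log scale) against abundance rank (horizontal axis, log scale) for all genes of each library, 1 line per library coloured by genotype, with Mov10l1 as circles and Piwil3 as triangles. Piwil3 lies at ranks 1251 to 2043 with KO at the upper end, and Mov10l1 at ranks 3264 to 7338 with KO at the lower end.

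The ratio of the genes within a library needs no scaling between libraries. It is a ratio of reads without division by length, so its size does not compare numbers of molecules, but the lengths are the same in every library and cancel when libraries are compared. There were 7.42 Piwil3 reads per Mov10l1 read in WT 1, and 2.21 in WT 2. The HET libraries had 5.55 and 5.65. The KO libraries had 23.6, 20.2 and 42.8. All KO libraries were above all others, and the lowest KO library was 2.72 times the highest of the others (WT 1). Mov10l1 alone, in CPM, already separated KO from the others, with a gap of 2.15-fold. How many other genes would give such a separation in their ratio to Mov10l1 was not computed. The HET libraries were close to each other, and both lay between the WT libraries.

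On the log2 scale the mean ratio was 2.02 ± 1.23 in WT (SD, n = 2), 2.49 ± 0.017 in HET (SD, n = 2) and 4.77 ± 0.57 in KO (SD, n = 3). KO exceeded WT and HET together by 2.52, which is 5.73-fold. The exact two-sided permutation test over libraries gave p = 0.0571 (n = 3 against 4), which is the smallest value that 35 arrangements allow. The same smallest p was found for the log2 CPM of Mov10l1 and of Piwil3, and the value adjusted over these 3 tests was again 0.0571 by exact permutation, so that the design could not reach 0.05 for any of them. The difference of 2.52 is the sum of a fall of Mov10l1, whose log2 CPM was −2.10 in KO relative to the others, and a difference of Piwil3 of 0.42. On the CPM scale, Mov10l1 thus made up 83.4% of the change in ratio. Unlike the ratio itself, this split depends on the scaling: with DESeq2 size factors the parts were −2.03 and 0.49. Expressed as a share of the reads of both genes, Mov10l1 held 11.9 and 31.1% in the WT, 15.3 and 15.0% in the HET and 4.06, 4.72 and 2.28% in the KO libraries. With 1 library left out, the difference in log2 ratio was 2.15 (without WT 2) to 2.74 (without KO 2).

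**Figure D4:**
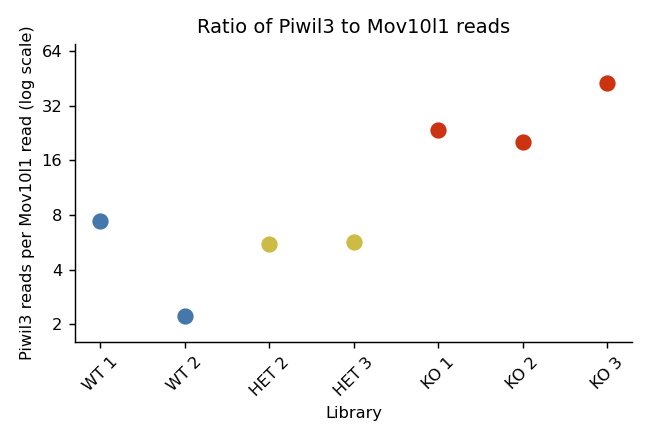
Piwil3 reads per Mov10l1 read (vertical axis, log scale) in each library. Points are libraries coloured by genotype. The KO libraries lie at 20.2 to 42.8 and the WT and HET libraries at 2.21 to 7.42.

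CPM of the library total placed the genes of KO slightly low as a whole. Over 5500 genes with a mean of at least 10 CPM, the median log2 difference of KO from WT and HET was −0.08 with this scaling, and −0.02 with the size factors of DESeq2. Against WT alone it was −0.10 and −0.02. With size factors, the log2 difference of KO from WT and HET was −2.03 for Mov10l1 and 0.49 for Piwil3, and KO libraries stayed below the others for Mov10l1 (gap 2.10-fold) and above them for Piwil3 (gap 1.11-fold). Neither direction turned under any of the scalings tried, which also included TMM and totals without the 20 most abundant genes.

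Reads that aligned to several places, or overlapped several genes, had been divided between them, and a count that is not whole shows that such reads were present. Mov10l1 had whole counts in WT 1, WT 2, HET 2 and KO 3, and counts that were not whole in HET 3 (524.5), KO 1 (119.5) and KO 2 (217.17). Piwil3 was whole in 6 libraries and not in KO 2 (4383.87). Whole counts can also arise as sums of divided reads, so how many reads were shared is not known from the table. Golden hamsters have other PIWI genes and the related helicase gene Mov10, and what these add to either row was not tested.

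**Figure D5:**
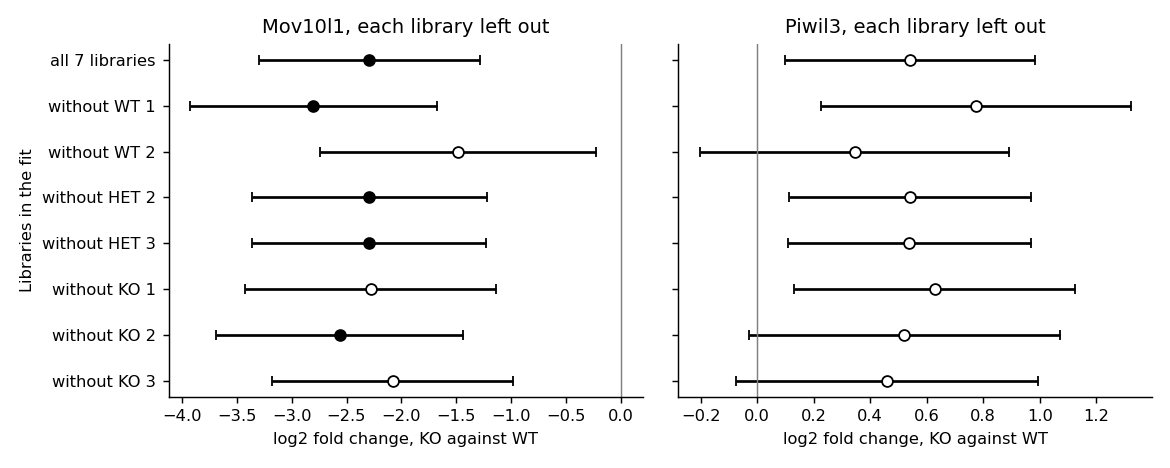
Log2 fold changes in KO against WT (horizontal axis, 95% intervals as bars) of Mov10l1 (left) and Piwil3 (right), from all 7 libraries and with each library left out. Filled points were called at a DESeq2 adjusted p under 0.01. Mov10l1 ranges from −2.80 without WT 1 to −1.48 without WT 2, and Piwil3 from 0.34 without WT 2 to 0.78 without WT 1.

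The genes whose pattern was most like that of each gene were sought among those with a mean of at least 10 CPM, by Pearson's correlation of log2(CPM + 1) over the 7 libraries. With 5499 other genes and 7 libraries, high values are found for many genes. They are given as a description with no test, and nothing is known here of what the identifiers encode. Most like Mov10l1 was ENSMAUG00000016235 (r = 0.977), at 70.8 and 93.5 CPM in the WT, 79.8 and 80.8 in the HET and 59.2, 56.0 and 49.1 in the KO libraries. Its range was far narrower than that of Mov10l1, with a log2 fold change between KO and WT of −0.50. Next was ENSMAUG00000002782 (r = 0.976), which ran from 152 CPM in KO 3 to 195 in WT 2 and ordered the 7 libraries as Mov10l1 did (Spearman's rho = 1). For Mov10l1, 42 genes had an r above 0.9, and for Piwil3, 6.

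Most like Piwil3 was ENSMAUG00000012431 (r = 0.952), at 1366 and 1177 CPM in the WT, 1201 and 1326 in the HET and 1279, 1444 and 1543 in the KO libraries. KO 1 lay below WT 1 and HET 3 in this gene, unlike in Piwil3. Next was ENSMAUG00000001871 (r = 0.939), at 44.3 and 29.9 CPM in the WT, 38.6 and 56.3 in the HET and 49.3, 90.2 and 71.2 in the KO libraries. Its estimated difference between KO and WT was 0.99 on the log2 scale, where that of Piwil3 was 0.54. Whether these differ was not tested.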

How the data were processed

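RNA from pooled fully grown oocytes was amplified and sequenced as 100-nucleotide single-end reads. The authors aligned reads to MesAur1.0 with STAR (version 2.7.3a) and counted them over exons of Ensembl models, with Piwil3 and Tex101 models from RefSeq, using featureCounts (version 2.0.0) without strand and with multimapping and overlapping reads divided. The deposited values are estimated counts, of which 10.2 to 11.8% per library were not whole. Versions are from the submitters' processing notes.

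CPM were computed here from the column totals. Counts were rounded and tested with DESeq2 (version 1.42.0; two-sided Wald test, Benjamini–Hochberg adjustment over all genes tested, independent filtering at 0.01) in R (version 4.3.3), as named in the study's methods. All 7 libraries entered a common fit by genotype, a fit of KO against the rest and a fit by number of mutant alleles. Intervals are 1.96 standard errors wide on either side. edgeR (version 4.0.16) was the main alternative. The 2 genes and the gene lists were chosen with earlier results of these data known. The genes named are Mov10l1, Piwil3, listed pathway genes tied to a row (0 were) and for each of them the 2 most alike genes by correlation. Replicates are separate animal codes, and all pairs of libraries differed by more than sampling noise (chi-square per degree of freedom 52.3 or more).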

Additional observations from a re-analysis of the deposited data

How the results depend on the processing

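The directions of Mov10l1 and Piwil3 in KO against WT, against HET, against both and per allele were kept under every alternative run, and Piwil3 was called in none. Mov10l1 lost its call against WT by edgeR (−2.28), with age as a covariate (−1.48) and with the replicate block (−2.14, DESeq2 adjusted p 0.0143). Against WT and HET together it lost it by edgeR (−2.06) and with age (−1.63), and per allele by edgeR (−1.19) and with age (−1.03). Leaving out 1 library gave −2.80 to −1.48 against WT, −2.34 to −1.71 against WT and HET together (not called without WT 2, KO 1 or KO 3, with DESeq2 adjusted p of 0.0113, 0.0184 and 0.0360) and −1.49 to −1.04 per allele (not called without WT 2, HET 2, KO 1, KO 2 or KO 3, with DESeq2 adjusted p of 0.161, 0.0101, 0.0481, 0.0194 and 0.0389). A genotype left with 1 library was assumed to vary like the others. Between HET and WT the sign was not stable. Mov10l1 turned to 0.19 with age and ran from −0.99 to 0.32 when 1 library was left out, turning without WT 2, and Piwil3 ran from −0.084 to 0.35, turning without WT 2. The cause was not tested.

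The numbers of genes called moved more. At an adjusted p under 0.05 there were 133 (KO against WT, 63 at 0.01), 115 (HET against WT, 51), 91 (KO against WT and HET, 36) and 82 (per allele, 44). By edgeR there were 1, 2 (KO against HET, 35 by DESeq2), 1, 4 and 0 in the order KO against WT, KO against HET, HET against WT, KO against both and per allele, and per allele 621 genes had an unadjusted p under 0.05 by edgeR. With at least 10 counts in 3 libraries there were 37, 14, 27, 19 and 25. Age gave 36 against WT and 7 per allele. The genotypes compared alone gave 99, 54 and 30 in the first 3 comparisons, and the fit without Cook's filter gave 62 against both. Leaving out 1 library gave 20 to 96, 11 to 163, 33 to 100, 17 to 58 and 25 to 62.

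Replicate numbers name different animals, so the reported values have no block. In the 5 pairs of equal number the libraries' deviations had correlations of −0.03 to 0.08 over genes. Pairs of unequal number had −0.08 to 0.03. In a genotype with 2 libraries the deviations mirror each other, so these values cannot decide whether libraries of equal number belong together. With the replicate block 147 genes were called against HET and 135 against WT and HET. Among genes with at least 10 counts, the median rank of Mov10l1 was at 49.1% from the top, against 21.8% of the whole table, and that of Piwil3 at 16.8% against 7.48%. With genes of at least 1 CPM admitted, another gene became most like Mov10l1 (r = 0.979) and another most like Piwil3 (r = 0.954). Reads per length could not be compared, because no transcript lengths were used here. The lowest count of either gene was 91 (Mov10l1 in KO 3). Its counting interval of 2.63 to 4.01 CPM overlapped that of KO 1 (3.81 to 5.51) but lay below those of all WT and HET libraries.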
